A study of Mus musculus with 2 samples.

Results

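Peroxisome biogenesis and peroxisomal enzyme genes were described in mouse liver as a set of 32 genes, chosen by symbol from the 21936 genes of the deposited table. The set holds 13 peroxins, the proteins that build peroxisomes, and 19 enzymes, most of which work inside them. Each of the 32 symbols belonged to exactly 1 gene identifier. RNA sequencing covered 2 libraries, 1 for each genotype. The knockout library came from the liver of mice with both Hnrnpk alleles floxed (hnRNPK flox/flox) and the Alb-Cre transgene, which places Cre recombinase under the albumin promoter, active in hepatocytes. The control library came from hnRNPK flox/flox mice without the Cre. Both libraries thus carry the floxed alleles, and the Cre transgene is the labelled difference. The sources used here do not give age, sex or the number of mice in a library, and the labels name no Cre-only control. With 1 library per genotype no spread between animals could be estimated. No p-value is given, and each fold carries an exact Clopper-Pearson 95% interval that covers counting error only.

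Peroxisomes are membrane-bound organelles that hepatocytes hold in large numbers. They shorten very long and branched fatty acids and bile acid precursors, start the synthesis of ether lipids, and oxidise glycolate, D-amino acids and urate with oxidases that release hydrogen peroxide. Their enzymes are made in the cytosol and carried in folded form by shuttling receptors, which are then pulled back out of the membrane and used again. In rodent liver the nuclear receptor PPARA induces many peroxisomal genes.

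The knockout library held 12176239 counted reads and the control library 12428975. Hnrnpk, the targeted gene, had 1411 reads in the knockout and 2559 in the control, a ratio of 0.567 (0.531 to 0.605). All 8 hepatocyte markers were well covered, with 1349902 summed reads in the knockout and 1358391 in the control. Markers of other cells differed between the 2 libraries. The 8 cholangiocyte markers summed to 1699 reads in the knockout and 480 in the control, with 4 of 6 evaluated genes at least 2-fold higher. The 8 stellate cell and fibroblast markers summed to 4511 and 3647 reads, the 8 Kupffer cell markers to 2774 and 3414, and the 7 sinusoidal endothelial markers to 3632 and 4146, in each case with the knockout given before the control. Directions within these lists were mixed. The log2 ratio was above 0 for 7 of 8 stellate cell and fibroblast, 2 of 8 Kupffer cell and 1 of 7 endothelial markers. None of the markers was at 0 in either library. Fewer hepatocytes and less RNA per hepatocyte cannot be told apart in whole liver, and the part of the other cells in the values below was not tested.

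Levels are given as FPKM, a deposited value in which reads are divided by the gene's length and the library's total. Evaluated genes are the 9563 genes with FPKM 1 or more and 20 reads or more in the library where they were higher. Of the 32 peroxisomal genes, 29 were evaluated, namely all 13 peroxins and 16 of 19 enzymes. The other 3 were Dao, Hao2 and Far1. None of the 29 was 2-fold apart between the libraries. By comparison, 3.59% of all evaluated genes were past 2-fold, made up of 2.48% higher in the knockout and 1.11% lower.

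Among the smaller differences, ratios below 1 were more common than ratios above 1. A log2 ratio of knockout over control below 0 was seen in 20 of the 29 genes, or 69.0%, beside 54% of all evaluated genes. It was seen in 11 of 13 peroxins and in 9 of 16 enzymes. The median log2 ratio was -0.18 for peroxins and -0.09 for enzymes, beside -0.03 for all evaluated genes. The difference of the medians, peroxins minus enzymes, was -0.10, with counting bounds of -0.28 to 0.20, taken from the medians of the members' own interval bounds. These bounds span 0 but keep the width of single genes, so they cannot decide whether the difference exceeds counting error. The genes are not replicates of a condition, and this difference has no test. The typical size of a difference, the median absolute log2 ratio, was 0.24 for peroxins, 0.22 for enzymes and 0.22 for all evaluated genes, so the set stood apart from other genes little in spread.

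The enzymes took far more reads than the peroxins. Peroxin reads summed to 8439 in the knockout and 10358 in the control, a ratio of 0.838 (0.814 to 0.863). Enzyme reads summed to 166938 in the knockout and 184749 in the control, a ratio of 0.929 (0.923 to 0.936). Scp2, Cat, Phyh and Uox alone made up 80.5% of all reads of the set in the knockout and 79.8% in the control, so the enzyme sum rests on them. Without them the enzyme sum had a ratio of 0.912 (0.897 to 0.928). Without Pex26, the peroxin sum had a ratio of 0.867 (0.841 to 0.893) and the peroxin median a log2 ratio of -0.15. Pex11a stayed in this sum and had the larger gap in reads. It had 1211 reads in the knockout and 1872 in the control, against 447 and 872 for Pex26. The lower peroxin sum thus rests in part on these 2 genes, and a sum without both was not taken.

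**Figure D1:**
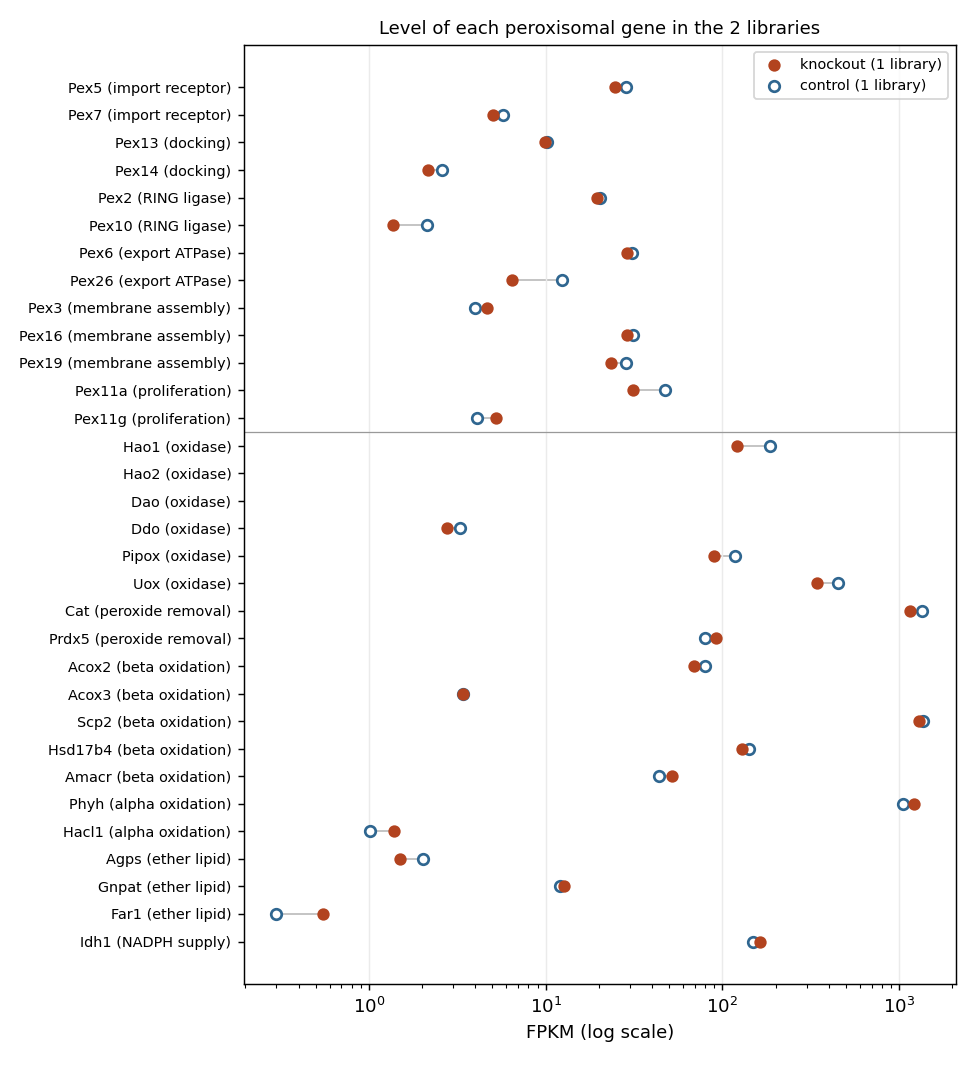
FPKM of each gene on a log axis, with the knockout library as filled red points and the control library as open blue circles, peroxins above the line and enzymes below it. Enzyme levels reach 1304 in the knockout and 1369 in the control, while the highest peroxin, Pex11a, reaches 31.3 and 47.3 in that order, and Dao and Hao2 have no points because a library held 0 reads.

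The widest gap in the set belonged to Pex26, the membrane anchor that holds the export ATPase on the peroxisome. Pex26 (mm10 chromosome 6, 121183667 to 121198837, plus strand) had 447 reads in the knockout and 872 in the control, or FPKM 6.48 and 12.4 in that order. The ratio was 0.527 (0.469 to 0.592) and the log2 ratio -0.92, and 1.40% of evaluated genes had a lower ratio. The counting interval reached past 2-fold, so this gene lay at the edge of that rule. Pex26 anchors an AAA ATPase complex that extracts used import receptors from the membrane and that contains Pex6. Pex6 had 1339 reads in the knockout and 1463 in the control, with a ratio of 0.941 (0.873 to 1.01). Pex6 was thus much closer to the control level than its anchor. An unconfirmed gene model on the opposite strand overlaps 133 exonic bases of Pex26, or 2.35% of its exons.

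The receptors that carry enzymes to the organelle were slightly lower. Pex5, the receptor for the C-terminal targeting signal, had FPKM 24.7 in the knockout and 28.4 in the control, a ratio of 0.874 (0.808 to 0.945). Pex7, the receptor for the N-terminal signal, had 5.02 and 5.75 FPKM in the same order, a ratio of 0.880 (0.796 to 0.972). The 2 receptors therefore stood at nearly the same ratio. The log2 ratio of Pex7, one of the longer transcripts, was -0.18 before and 0.00 after subtracting the trend of the ratio with gene length. For both membrane docking proteins the counting interval included 1. Pex13 had 564 reads in the knockout and 584 in the control, a ratio of 0.993 (0.883 to 1.12). Pex14 had 166 and 203 reads in that order, a ratio of 0.841 (0.681 to 1.04), and 28.3% of its exonic bases overlap an antisense gene.

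The RING ligase, which tags receptors with ubiquitin before their export, had members that differed from one another. Pex10 had 55 reads in the knockout and 87 in the control, a ratio of 0.650 with a wide interval of 0.455 to 0.922. Pex2 had 541 and 574 reads, knockout before control, a ratio of 0.969 (0.860 to 1.09). The interval of Pex10, the less abundant of the pair, lay below 1, and that of Pex2 included 1.

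Of the 3 membrane assembly genes, Pex19 had a counting interval below 1, and the intervals of Pex16 and Pex3 included 1. Pex19, the cytosolic carrier of peroxisomal membrane proteins, had FPKM 23.4 in the knockout and 28.4 in the control, a ratio of 0.828 (0.764 to 0.898). Pex16, a membrane protein that recruits Pex3, had 622 reads in the knockout and 692 in the control, a ratio of 0.924 (0.828 to 1.03). Pex3, the docking site of Pex19, had 269 and 234 reads in that order, a ratio of 1.18 (0.989 to 1.42).

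The proliferation factors of the Pex11 family also differed in direction. Pex11a, which shapes and multiplies peroxisomes and is induced by peroxisome proliferators in rodents, was the most abundant peroxin in both libraries, with FPKM 31.3 in the knockout and 47.3 in the control. Its ratio was 0.665 (0.618 to 0.716). Pex11g had 216 reads in the knockout and 172 in the control, a ratio of 1.29 (1.05 to 1.59), and was the only peroxin whose counting interval lay above 1. Gene models on the opposite strand cover 41.1% of the exonic bases of Pex11g, and no source used here gives the strand setting of the counts.

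**Figure D2:**
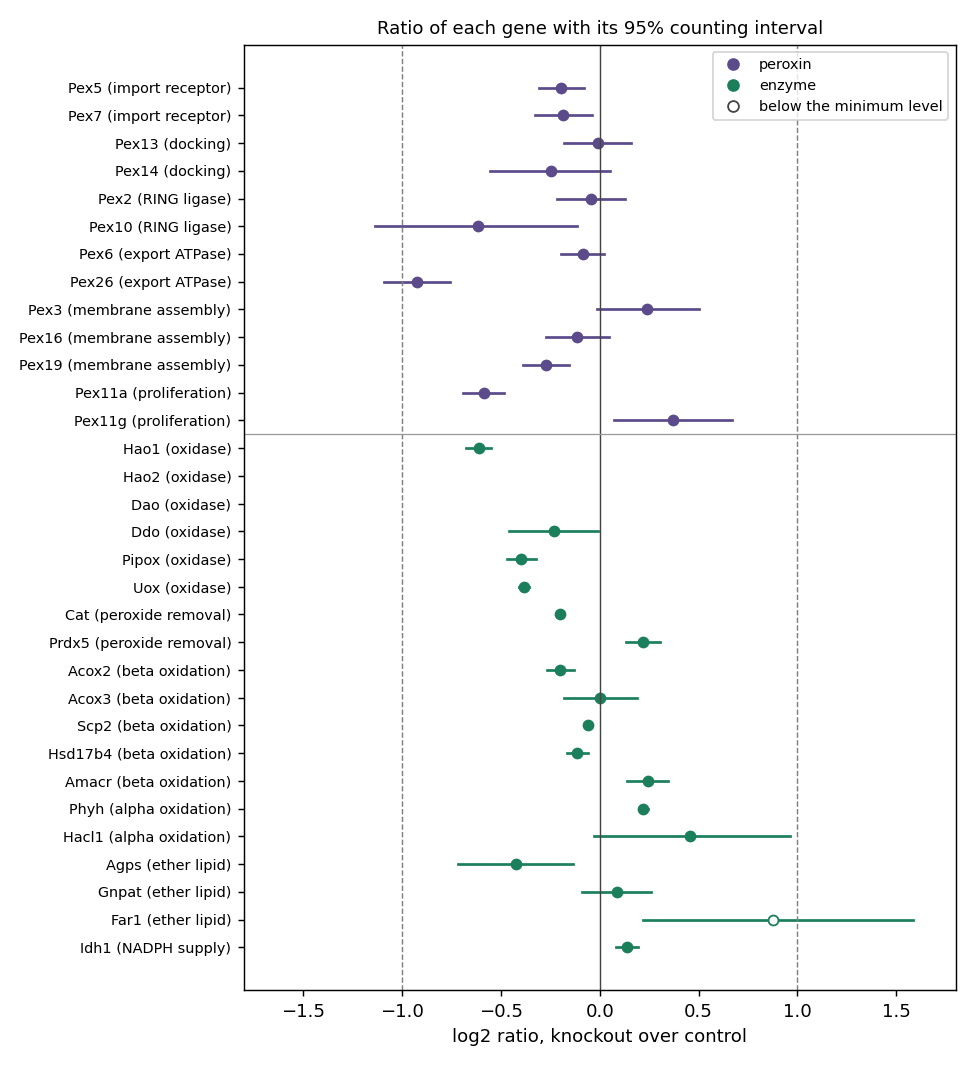
Log2 ratio of knockout over control for each gene, with its 95% counting interval as a bar, peroxins in purple above the line and enzymes in green below it. Dashed lines mark 2-fold differences, which no evaluated gene reached; Pex26 at -0.92 comes closest, and Far1, drawn open, was below the minimum level.

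At a smaller threshold of 1.5-fold, 4 of the 29 genes, or 13.8%, were lower in the knockout, beside 5.29% of all evaluated genes. These were Pex26, Pex10, Hao1 and Pex11a, and Pex11a lay just past the threshold. None of the 29 evaluated genes was 1.5-fold higher, beside 6.15% of all evaluated genes. Far1, below the minimum level, is not among the 29. The counting interval lay below 1 for 15 of the 29 genes and above 1 for 5, beside 26% and 20.8% of all evaluated genes in that order. Abundant genes have narrower intervals, so the same was counted among genes with 1000 or more reads over both libraries. There the interval lay below 1 for 12 of 21 peroxisomal genes, or 57.1%, beside 37.2% of all such genes, and above 1 for 4, or 19.0%, beside 29.2%.

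**Figure D3:**
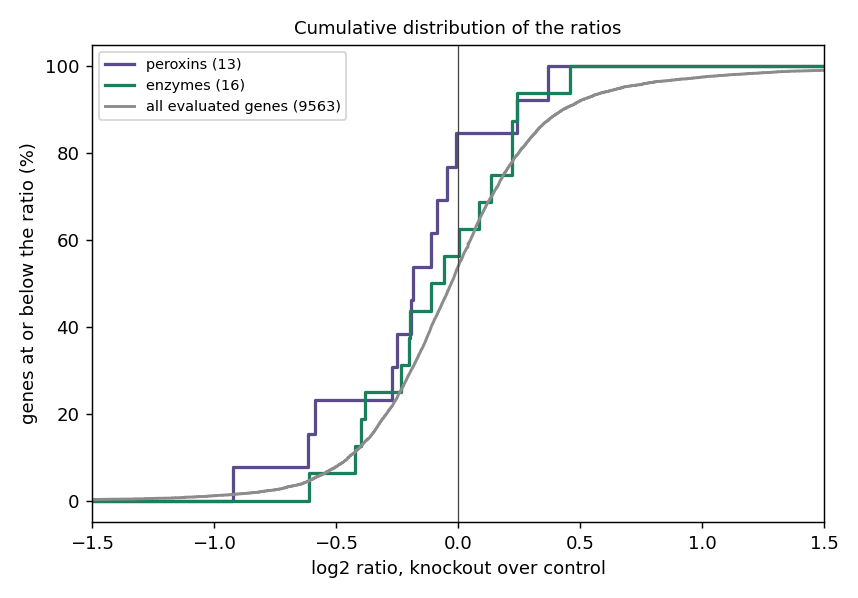
Share of genes at or below each log2 ratio, with peroxins in purple, enzymes in green and all 9563 evaluated genes in grey. The peroxin curve runs left of the grey one over most of its range and reaches 84.6% at a ratio of 0, while the enzyme curve stays near the grey one, at 56.3% against 54%.

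Among the enzymes, the oxidases were the role in which all 4 evaluated genes were lower in the knockout. By comparison, the log2 ratio was below 0 for 54% of all evaluated genes. This depends on the grouping, since Acox2 and Acox3, also oxidases, were listed under beta oxidation. Of these, Acox3 had a ratio of 1.001 (0.881 to 1.14). Summed over the 6 listed oxidases, reads were 27357 in the knockout and 37466 in the control, a ratio of 0.751 (0.739 to 0.763). Most of these reads were from Uox, so the sum rests mainly on that gene. Hao1, the glycolate oxidase that makes glyoxylate in hepatocytes, had 3374 reads in the knockout and 5303 in the control, or FPKM 121 and 187 in that order. Its ratio was 0.654 (0.627 to 0.683), the lowest of the evaluated enzymes. Pipox, which oxidises pipecolate and sarcosine, had FPKM 89.2 in the knockout and 118 in the control, a ratio of 0.760 (0.722 to 0.799). Uox, the urate oxidase that mice retain and humans have lost, had 20999 reads in the knockout and 28165 in the control, a ratio of 0.767 (0.753 to 0.781). Ddo, the D-aspartate oxidase, had 301 reads in the knockout and 364 in the control, a ratio of 0.851 with an interval that ended just below 1 (0.728 to 0.994). The other 2 oxidases were almost without reads. Dao, the D-amino acid oxidase that is abundant in mouse kidney, had 0 reads in both libraries, which allows up to 3 reads in each. Hao2, a hydroxyacid oxidase related to Hao1, had 0 reads in the knockout and 1 in the control, and no fold is given.

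The upstream sequences of Hao1, Uox, Ddo and Pex26 are shown because the evaluated genes grouped here as oxidases share a direction and Pex26 had the widest gap. They come from the RefSeq promoter table (GRCm38.p6), read 5′ to 3′ on the gene's own strand, and were limited to at most 200 bases before the RefSeq start that lie outside every GENCODE exon. Pipox and Pex11a were also taken up, but too few bases free of exons remained to show them. The Uox stretch ends 72 bases before the RefSeq start. It lies inside the counted Uox gene, which starts at 146570426, and not upstream of that gene. Capitals mark the letters AGGTCA (the single repeat unit that many nuclear receptors bind), CACGTG (the E box) and CCAAT, on either strand.
Hao1, chr2:134554369-134554568, minus strand: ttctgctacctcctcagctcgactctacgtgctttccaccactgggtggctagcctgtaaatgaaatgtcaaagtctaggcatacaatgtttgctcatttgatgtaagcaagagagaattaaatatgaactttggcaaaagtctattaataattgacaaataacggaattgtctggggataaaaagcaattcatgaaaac
Uox, chr3:146596899-146597076, plus strand: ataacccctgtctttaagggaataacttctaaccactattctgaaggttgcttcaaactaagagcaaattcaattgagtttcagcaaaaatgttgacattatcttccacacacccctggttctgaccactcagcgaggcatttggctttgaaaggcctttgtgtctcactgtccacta
Ddo, chr10:40629811-40630010, plus strand: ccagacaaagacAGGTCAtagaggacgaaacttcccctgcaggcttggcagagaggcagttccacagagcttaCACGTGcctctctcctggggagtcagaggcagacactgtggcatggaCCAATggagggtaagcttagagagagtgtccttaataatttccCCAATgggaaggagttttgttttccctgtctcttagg
Pex26, chr6:121183467-121183666, plus strand: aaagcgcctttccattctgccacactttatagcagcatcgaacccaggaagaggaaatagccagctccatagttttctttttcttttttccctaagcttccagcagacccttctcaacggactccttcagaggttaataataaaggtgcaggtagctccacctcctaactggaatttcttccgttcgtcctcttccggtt
Of the printed stretches, only that of Ddo holds any of these letters. The 250 bases before each start were then searched on both strands for all genes in the table, which held 28 of the 32. The full PPARA type repeat AGGTCANAGGTCA was in 0 of the 28 and in 0.0407% of all 27025 genes, and the looser form AGGNCANAGGNCA in 0 of the 28 and in 0.400% of all genes. The single unit AGGTCA, which both repeats can contain, was in 5 of 28 genes (Cat, Dao, Ddo, Pex11g and Scp2), or 17.9%, beside 15.8% of all genes. CACGTG was in 3 of 28, or 10.7%, beside 6.86%, and CCAAT in 11 of 28, or 39.3%, beside 37.5%. CCCTCCC, a C-rich run of the kind hnRNP K binds, was in 9 of 28, or 32.1%, beside 21.5% of all genes. A match says only that the letters stand in the window.

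Enzymes that remove peroxide did not move together. Cat, catalase, had 36856 reads in the knockout and 43593 in the control, or FPKM 1158 and 1342, a ratio of 0.870 (0.858 to 0.882). Prdx5, a peroxiredoxin found in mitochondria and cytosol as well as peroxisomes, had FPKM 92.6 in the knockout and 80.1 in the control, a ratio of 1.16 (1.10 to 1.24). Trmt112 overlaps 19.1% of the exonic bases of Prdx5 on the opposite strand and had 174 reads in the knockout and 169 in the control.

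Among the enzymes of branched-chain and bile acid side-chain oxidation, the counting interval lay below 1 for 3 of 5 genes, above 1 for 1 and included 1 for Acox3. Over all evaluated genes it lay below 1 for 26% and above 1 for 20.8%. Over genes with 1000 or more reads in both libraries together, the shares were 37.2% and 29.2%. With 5 genes, these counts do not set the pathway apart. Scp2, whose gene encodes both a sterol carrier protein and the thiolase of this pathway, was the most abundant gene of the set, with FPKM 1304 in the knockout and 1369 in the control. Its ratio was 0.960 (0.949 to 0.971), and gene-level counts cannot separate its products. Hsd17b4, the D-bifunctional protein, had FPKM 130 in the knockout and 141 in the control, a ratio of 0.925 (0.891 to 0.959). Acox2, the oxidase for bile acid intermediates, had FPKM 68.8 in the knockout and 79.6 in the control, a ratio of 0.871 (0.830 to 0.914). Acox3, a branched-chain acyl-CoA oxidase, had 478 reads in the knockout and 491 in the control, a ratio of 1.001 (0.881 to 1.14). Amacr, the racemase that prepares branched substrates, had FPKM 51.6 in the knockout and 43.9 in the control, a ratio of 1.18 (1.10 to 1.27). Over these 5 genes the median log2 ratio was -0.06.

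Alpha oxidation removes a single carbon from phytanic acid, and of its 2 genes Phyh had a counting interval above 1 and Hacl1 one that included 1. Phyh, the phytanoyl-CoA hydroxylase, had 28151 reads in the knockout and 24848 in the control, or FPKM 1221 and 1056 in that order, a ratio of 1.17 (1.15 to 1.18). Hacl1, the lyase of the next step, had only 83 reads in the knockout and 62 in the control, a ratio of 1.38 (0.979 to 1.95). A protein-coding gene model on the same strand, listed with 0 reads in both libraries, shares 31.1% of the exonic bases of Hacl1, so the level of Hacl1 is uncertain.

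Ether lipid synthesis genes showed no common direction. Gnpat, which acylates dihydroxyacetone phosphate in the first step, had 555 reads in the knockout and 538 in the control, a ratio of 1.06 (0.941 to 1.20). Agps, which exchanges the acyl for an alkyl chain, had 171 reads in the knockout and 236 in the control, a ratio of 0.745 (0.608 to 0.911). Far1, which supplies the fatty alcohol, had 54 reads in the knockout and 30 in the control, a ratio of 1.85 (1.16 to 2.997). It reached only FPKM 0.551 in the knockout and 0.2997 in the control, below the minimum level, so it enters no count or median. Idh1, an NADPH-producing dehydrogenase of cytosol and peroxisomes, had FPKM 162 in the knockout and 149 in the control, a ratio of 1.10 (1.06 to 1.14).

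Of another 54 peroxisomal genes in the table, 49 were evaluated, and none was 2-fold apart, beside 3.59% of all evaluated genes. Their median log2 ratio was -0.12, beside -0.11 for the 29 genes of the set. The log2 ratio was below 0 for 34 of the 49, or 69.4%, beside 54% of all evaluated genes. At 1.5-fold, 3 of the 49 were lower in the knockout, or 6.12%, near the 5.29% of all evaluated genes, and 1 was higher, beside 6.15%. The lowest median was that of the genes listed as peroxisomal membrane transporters and channels, with -0.23 over 9 genes. Not every gene of that list carries the deposited table's gene ontology term for peroxisome, and where these proteins act was not examined. There Pxmp4, a membrane protein, had 891 reads in the knockout and 1356 in the control, a ratio of 0.676 (0.620 to 0.736). Abcd3, a transporter of branched-chain substrates, had a ratio of 1.07 (1.03 to 1.11), and Mpv17 had 1.15 (0.935 to 1.41).

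In the other beta oxidation genes the median was -0.10 over 19 genes, and the members spread widely. Crot, the octanoyltransferase that exports shortened chains, had 4593 reads in the knockout and 3078 in the control, a ratio of 1.54 (1.47 to 1.61). The carnitine acetyltransferase gene Crat had a ratio of 1.34 (1.11 to 1.63). At the other end were Acot4, a thioesterase with a ratio of 0.612 (0.519 to 0.721) and close sequence relatives, and Mlycd, the malonyl-CoA decarboxylase, with 0.635 (0.578 to 0.697). Ppara itself had 777 reads in the knockout and 1995 in the control, a ratio of 0.401 (0.368 to 0.435).

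The other matrix enzymes had a median of -0.10 over 12 genes. Ephx2, the soluble epoxide hydrolase, had FPKM 185 in the knockout and 288 in the control, a ratio of 0.647 (0.626 to 0.669), and Isoc1 had a ratio of 0.746 (0.687 to 0.809). Hsdl2 had a ratio of 1.23 (1.14 to 1.34) and Lonp2, the peroxisomal protease, 1.10 (1.05 to 1.16). Among other peroxins and division genes the median was -0.10 over 9 genes, with Fis1, a fission adaptor shared with mitochondria, at 1.22 (1.09 to 1.37) and the deubiquitinase gene Usp30 at 1.23 (1.03 to 1.46).

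**Figure D4:**
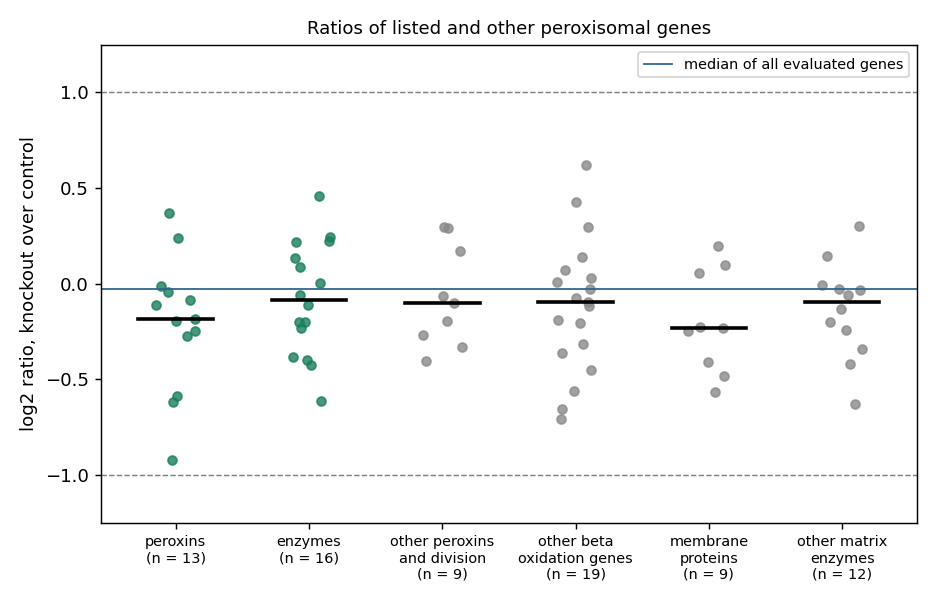
Log2 ratio of knockout over control for evaluated peroxins and enzymes of the set (green) and for other peroxisomal genes by role (grey), with the median of each group as a black bar and the median of all evaluated genes as a blue line. All 6 group medians lie below the blue line at -0.03, from -0.23 to -0.09, and no point reaches the dashed lines at 2-fold.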

How the data were processed

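For each gene and library, the deposited table gives a read count in whole numbers and an FPKM value made by the authors. Bowtie2 2.4.2 and mm10 are named, per the submitters' processing notes. The sources used here name no counting program, annotation, strand setting or handling of reads with several matches. Recomputing the deposited FPKM from the counts, gene lengths and column totals gave equal values for 21936 of 21936 genes in either library (relative tolerance 1e-06). The table's column names call the control WT and the knockout KO, and they were matched to the samples by genotype label. The series title calls the knockout hnRNPK-MKO, without spelling it out, while the sample labels give Alb-Cre. The labels were followed, and the discrepancy was not settled. Gene coordinates of the 32 genes were identical to GENCODE M21 on the same build.

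Counts were scaled by library totals times TMM factors (0.996 for the knockout and 1.004 for the control; edgeR 4.0.16, R 4.3.3). Log2 ratios of knockout over control were taken after adding 0.5 to the scaled counts, and folds had nothing added. Clopper-Pearson 95% intervals (scipy 1.17.1) and the floor of 3 reads for a count of 0 cover counting error only, since reads are not independent molecules. A fixed 2-fold rule took the place of a test. The calculation was tested on simulated counts. Protein targeting signals, planned as a description, were not analysed here. Genes named beside the 32 are Hnrnpk, Ppara and, in each list of other peroxisomal genes, the 2 highest and 2 lowest log2 ratios; genes outside this rule are marked. Of 55 listed other genes, 54 were in the table. Some genes that the rule takes are left out of the text. The members and lists were chosen with earlier results of these data known. Alternatives covered scaling (DESeq2 1.42.0 size factors or column totals), unit, pseudocount, filter, threshold and a gene length trend (running median over 401 genes).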

Additional observations from a re-analysis of the deposited data

How the results depend on the processing

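No paired analysis was possible because each genotype had 1 library. The difference of the peroxin and enzyme medians was -0.10 with 5 reads added and -0.09 with the gene length correction. Another scaling shifts both medians alike and by construction cannot move their difference. The count of genes at least 2-fold lower was 1 with no filter on low values, from the single control read of Hao2, and 4 with a threshold of 1.5-fold. The summed enzyme ratio was 0.922 with column totals and 0.946 as a sum of FPKM. The sign of the log2 ratio changed for Acox3 under DESeq2 size factors, column totals and FPKM, and for Pex7 and Pex13 under the length correction, all to values close to 0. The length correction moved 12 of 52 single genes outside their counting interval, among them Cat (-0.31 in place of -0.20). Pex26 ranged from -0.93 to -0.83. Pex10 was just short of 1.5-fold with 5 reads added (-0.58). Depth limits the low genes: intervals of Pex10, Hacl1 and Far1 span wide ranges, and differences between mice are not covered by any of them.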

Other observations

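The deposited table's own annotation (the gene ontology term for peroxisome) marks 132 genes, which include all 32 described above. Of these 132 genes, 108 were evaluated, with 4 at least 2-fold higher and 1 at least 2-fold lower in the knockout and a median log2 ratio of -0.09. Of all evaluated genes, 2.48% were past 2-fold higher and 1.11% past 2-fold lower, so these counts lie near the background. All 5 of these genes lie outside the lists used above, and they were chosen here after their values were seen. The 3 with the highest ratios are enzymes of isoprenoid synthesis. Not every such enzyme with this annotation was higher. Fdps, also named after its values were seen, had 45 reads in the knockout and 57 in the control, a ratio of 0.812 (0.537 to 1.22). Mvd, mevalonate diphosphate decarboxylase, had 169 reads in the knockout and 54 in the control, Idi1, isopentenyl diphosphate isomerase, had 1219 and 521, and Mvk, mevalonate kinase, had 297 and 141, each with the knockout given before the control. Acnat2, an acyltransferase gene, had 88 reads in the knockout and 45 in the control and lay just past the threshold (2.01-fold, 1.39 to 2.95). The 1 lower gene was Acsl1, the long-chain acyl-CoA synthetase, with 7436 reads in the knockout and 15959 in the control, a ratio of 0.479 (0.466 to 0.493). With the gene length trend subtracted, Acsl1 was at -0.94 and Acnat2 at 0.89 on the log2 scale, both within 2-fold. Acnat2 was also short of 2-fold, at 0.99, under DESeq2 size factors. The 35 evaluated genes with this annotation outside the lists had a median log2 ratio of 0.05.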
